A study of Sus scrofa with 50 samples.

Results

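Kidney RNA of the ET and L types of Korean minipig was compared in 9 libraries, 4 from ET-type animals (S0242, S0276, S0309 and S0326) and 5 from the L type (S0349, S0355, S0377, S0384 and S0385). They were drawn from 10 kidney libraries among the 50 of the series, which covers heart, kidney, liver, lung and spleen of the same 10 animals. Each library came from a separate animal, and the labels name no treatment and give no age or sex. RNA was extracted with TRIzol and made into stranded mRNA libraries. The kidney of ET-type S0235 was left out by the rule that defines the comparison, because its profile was lymphoid. The deposited values are TPM (each transcript's length-corrected share of its library) of assembled transcripts. A gene with an entry below is 1 Swiss-Prot protein entry summed over the transcripts that match it best. Each transcript without a match counts as a gene of its own, without an entry. Levels are TPM after median-ratio scaling of the 9 kidneys, with library factors between 0.791 and 1.37, and each difference is the ET-type mean minus the L-type mean of log2(TPM + 1), which understates changes of low genes.

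The kidney filters blood in the glomerulus, where podocytes cover the capillaries, and recovers most of the filtrate in the proximal tubule through transporters and the uptake receptors LRP2 (megalin) and CUBN (cubilin). The thick ascending limb reabsorbs salt and secretes uromodulin (UROM). The distal tubule and collecting duct then set the final salt, acid and water balance, the last through the vasopressin-regulated channel AQP2. A piece of kidney holds cortex and medulla in proportions that vary with where it was cut. In bulk tissue, fewer cells of a type and less RNA per cell cannot be told apart.

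The 4 defining kidney genes were present in all 9 kidneys. UROM ranged from 252 to 5480.0 TPM, AQP2 from 180 to 738, CUBN from 10.5 to 34.5 and LRP2 from 85.7 to 296. In the kidney of S0235 the deposited values were 0.179 TPM for UROM, 0.00956 for AQP2, 0.115 for CUBN and 1.17 for LRP2, while its lymph node list summed to 3345 TPM against at most 469 in any other kidney. A pair of further kidneys stood apart from the rest. ET-type S0242 lay at one end of the first principal component (33.6% of the variance) with high proximal tubule and thick limb genes, and ET-type S0276 lay at one end of the second (15.3%) with high immune genes. On the second component the ET-type kidneys ran from −17.6 to 87.6 and the L-type ones from −33.4 to −18.1, apart by a narrow gap. Mitochondrial transcripts took 30.6% ± 13.8 of TPM in ET-type kidneys and 26.4% ± 11.8 in L-type (SD, n = 4 and 5, exact permutation p = 0.635, adjusted over 4 measures 0.847). Genes at 1 TPM or more as deposited, with or without an entry, numbered 23930 ± 1004 in ET-type and 25984 ± 697 in L-type kidneys (exact permutation p = 0.0159, the smallest that 4 against 5 allows, adjusted 0.0635). Read counts were not used here, so the depth behind each value is unknown.

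No gene differed between the types past the test. Of the 26569 genes whose mean reached 1 TPM, limma called 0 (0%) at a Benjamini-Hochberg adjusted p below 0.05, and the lowest adjusted p was 0.0818. Of the genes tested, 14034 were transcripts without an entry. At an unadjusted p below 0.05 there were 1542 genes, 889 higher and 653 lower in ET-type, and 880 of the 1542 had no entry. Among the 12535 genes with an entry, 497 (3.96%) were higher and 165 (1.32%) lower at that level. The 2 groups of kidneys did not overlap for 261 of these entries with ET-type above (2.08%) and for 88 with ET-type below (0.702%). That balance depends on the scaling: the median of all genes lay at −0.01 after scaling and at −0.28 with TPM as deposited, where 13 entries kept the groups apart with ET-type above and 301 with ET-type below. With TPM as deposited 1 gene was called, a transcript without an entry. Leaving out ET-type S0309 gave 5 calls, all transcripts without an entry, and leaving out S0242 or S0326 gave 1 such transcript each. Leaving out L-type S0355 gave 1 call, GSTA1, a glutathione transferase of detoxification, at 3.23 higher in ET-type (limma adjusted p = 0.0139). All genes named below therefore stand as values that did not pass, unless another fit is named.

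**Figure D1:**
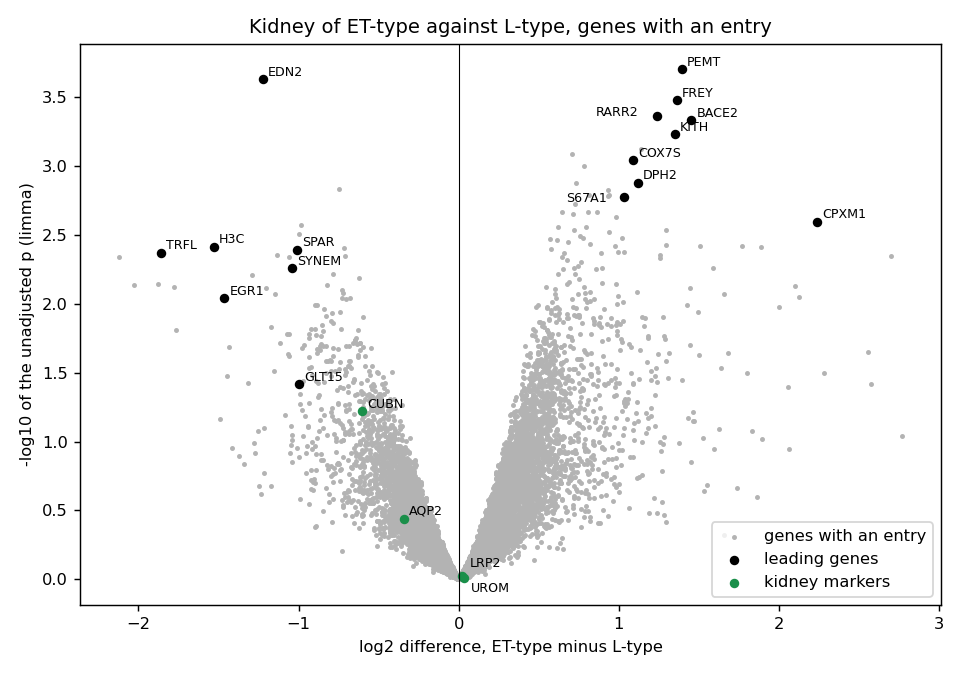
Log2 difference of ET-type minus L-type kidneys (horizontal) against −log10 of the unadjusted limma p (vertical) for the 12535 genes with an entry. Black points are the leading genes, with PEMT and EDN2 at the top on either side, and green points are the 4 kidney markers, of which UROM and LRP2 lie near 0; no gene passed after adjustment.

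The leading genes are entries whose groups did not overlap and differed by at least 1 on the log2 scale, ordered by p. The first higher in ET-type was PEMT, which makes phosphatidylcholine from phosphatidylethanolamine (chr12:60880367-60919279, RefSeq on Sscrofa11.1). It stood at 159, 101, 119 and 112 TPM in ET-type S0242, S0276, S0309 and S0326. In L-type S0349, S0355, S0377, S0384 and S0385 it stood at 63.5, 37.4, 30.5, 49.4 and 55.1 TPM. The lowest ET-type kidney was thus above the highest L-type one, and the difference was 1.39 (SE 0.25, limma adjusted p = 0.313). In a fit of all 5 tissues in which the animal was the replicate block and the tissues shared 1 estimate of the spread, 155 genes passed, 53 of them with an entry, and PEMT was among them (1.40, limma adjusted p = 0.00474). That fit also held the heart, liver, lung and spleen of S0235, but not its kidney. Of the leading genes below, RARR2, BACE2, S67A1 and COX7S did not pass in it (limma adjusted p = 0.402, 0.0667, 0.0601 and 0.168). Nor did EGR1, SYNEM, GLT15, SPAR and H3C, all lower in ET-type (limma adjusted p = 0.331, 0.362, 0.386, 0.428 and 0.128).

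RARR2, or chemerin, a secreted protein that draws immune cells and acts on fat tissue (chr18:55903693-55906976), was among the most abundant of these genes. Its levels were 2427, 2401, 2329.7 and 1648 TPM in the ET-type kidneys, and 1073, 869, 1130.6, 633 and 988 TPM in the L-type kidneys. The groups were apart although S0326 lay below the other 3 ET-type kidneys, and the difference was 1.24 (SE 0.24, limma adjusted p = 0.444).

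BACE2, a membrane aspartyl protease (chr13:204600740-204720215), stood at 21.8, 18.05, 9.53 and 21.6 TPM in ET-type and at 5.86, 4.69, 7.92, 6.06 and 3.96 TPM in L-type, a difference of 1.45 (SE 0.29, adjusted p = 0.444). The entry S67A1, solute carrier family 67 member A1, also named SLC22A18 (chr2:2032370-2055756), had 164 to 277 TPM in ET-type against 63.5 to 130 in L-type (1.03, SE 0.24, limma adjusted p = 0.712). CPXM1, a secreted protein of the carboxypeptidase family found in collagen-rich tissue (chr17:32845154-32852065), showed the widest difference of these genes, at 2.24 (SE 0.57, limma adjusted p = 0.765). With the replicate block the limma adjusted p of CPXM1 was 0.00138. That fit pools the spread of kidney with that of tissues where its mean was 0.156 to 3.39 TPM. CPXM1 levels in kidney were uneven within the ET type, with 5.94, 36.8, 6.68 and 20.6 TPM, against 2.12, 2.39, 1.33, 5.75 and 0.606 in L-type, so that S0242 lay just above L-type S0384.

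KITH, the cytosolic thymidine kinase TK1 that rises with DNA synthesis (chr12:3785997-3794824), had 4.08, 3.78, 5.09 and 3.72 TPM in ET-type and 1.19, 0.196, 1.19, 1.98 and 0.958 in L-type (1.35, SE 0.28, limma adjusted p = 0.510). With the replicate block its limma adjusted p was 0.00226, with the spread pooled over tissues where its mean was 0.238 to 6.16 TPM. DPH2, which helps to make the modified histidine diphthamide of elongation factor 2 (chr6:167322197-167327760), had 15.3 to 30.0 TPM against 7.64 to 14.4 (1.12, SE 0.26, adjusted p = 0.70; 0.0112 with the replicate block). FREY, a small endoplasmic reticulum protein known from sperm, was at 30.1 to 42.5 TPM against 9.53 to 22.2 (1.36, SE 0.26, adjusted p = 0.402; 0.0407 with the replicate block). COX7S, an entry named putative cytochrome c oxidase subunit 7A3, was at 26.8 to 38.8 against 11.095 to 21.9 TPM (1.09, SE 0.24), and rests on 1 transcript with 70.5% identity to the human protein.

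Fewer entries led in the opposite direction: 7 met the rule. EDN2, or endothelin-2, a vasoconstrictor peptide of the endothelin family (chr6:169751956-169758011), was low everywhere. It stood at 1.33, 0.424, 0.578 and 0.779 TPM in ET-type S0242, S0276, S0309 and S0326, and at 3.23, 2.60, 2.58, 3.48 and 3.63 TPM in L-type S0349, S0355, S0377, S0384 and S0385. Every L-type kidney had more than the highest ET-type kidney, with a difference of −1.22 (SE 0.22, limma adjusted p = 0.313). With the replicate block EDN2 passed at the same difference of −1.22 (limma adjusted p = 6.21e-09), and its mean level in the other tissues, whose spread that fit pools with that of kidney, was between 0.0365 and 0.136 TPM.

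TRFL, or lactotransferrin, an iron-binding secreted defence protein (chr13:29413886-29445751), had 1.007, 1.77, 2.42 and 0.259 TPM in ET-type and 14.5, 5.92, 16.5, 2.91 and 3.56 in L-type (−1.86, SE 0.51, adjusted p = 0.775; −1.85 with the replicate block, adjusted p = 5.71e-04). In the other tissues, whose spread that fit pools with that of kidney, the mean of TRFL was 0.0225 to 0.959 TPM. EGR1, a transcription factor induced within minutes of stimulation (chr2:140440829-140445302), had 16.4, 18.5, 27.4 and 26.2 TPM against 45.3, 61.0, 34.8, 202 and 44.7 (−1.46, SE 0.46, adjusted p = 0.827). L-type S0384 lay far above the others, and the remaining 4 L-type kidneys were still above all ET-type ones. SYNEM (synemin), an intermediate filament protein of muscle cells (chr1:137855644-137883914), had 0.507 to 2.38 TPM against 3.44 to 6.77 (−1.04, SE 0.30). GLT15 (GALNT15), an enzyme that starts O-linked glycans (chr13:3329824-3371094), had 0.354 to 0.725 against 0.848 to 7.83 (−1.0, SE 0.42). SPAR, a small lysosomal regulator of mTORC1, had 5.78 to 7.37 against 8.93 to 22.5 (−1.01, SE 0.27). H3C, at 2.47 to 6.41 against 8.28 to 28.0 (−1.53, SE 0.41), rests on 1 transcript with 65.4% identity to mouse histone H3.3C.

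**Figure D2:**
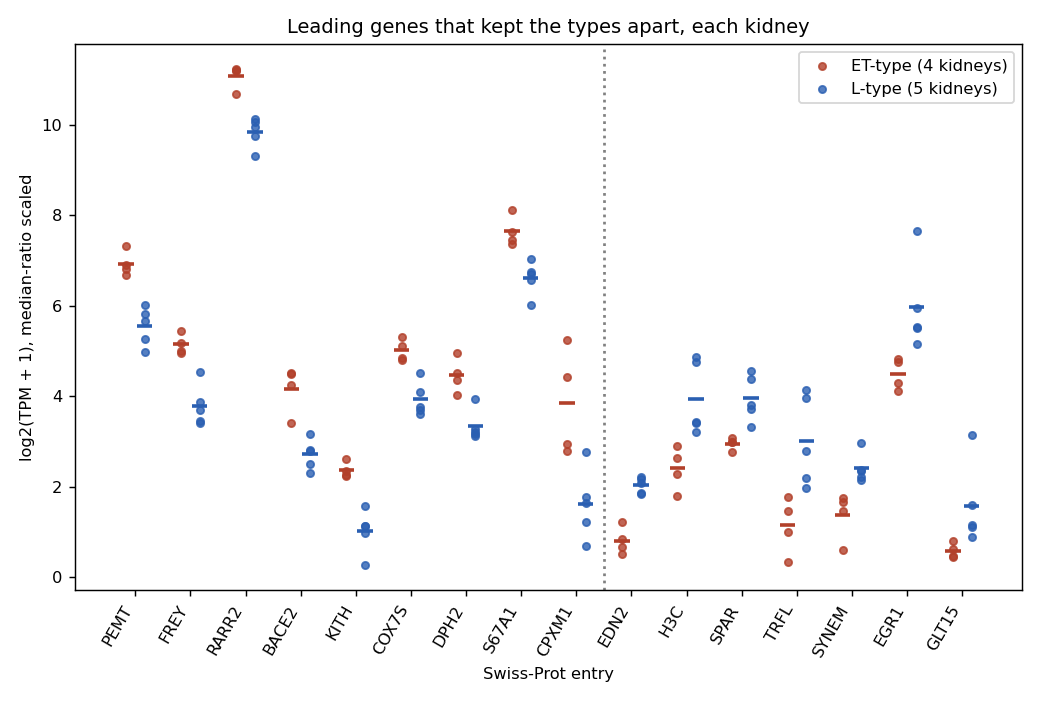
Level of the leading genes described here in each kidney, as log2(TPM + 1) after scaling, with ET-type in red (4 kidneys), L-type in blue (5) and a bar at the group mean. Genes left of the dotted line are higher in ET-type and the 7 to its right lower, and in each the groups do not overlap, which is how they were chosen.

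The nephron markers did not separate the types. UROM was at 5480.0, 365, 521 and 549 TPM in the ET-type kidneys S0242, S0276, S0309 and S0326. In L-type it was at 478, 252, 1552, 620 and 3846. S0242 and L-type S0385 were high and the groups overlapped, so that the difference of 0.03 had an SE of 0.93 (limma adjusted p = 0.9997), and it was −0.85 without S0242. LRP2 differed by 0.02 (SE 0.36), AQP2 by −0.34 (SE 0.36) and CUBN by −0.60 (SE 0.29), all with overlapping groups. CUBN was lowest in S0276 at 10.5 TPM and in L-type S0385 at 15.1, and the other 3 ET-type kidneys (18.3 to 20.5) lay below the other 4 L-type ones (24.04 to 34.5).

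Lists of genes by nephron segment, and the later lists, are set beside all 12535 entries. The median of these entries was 0.05 and became −0.24 with TPM as deposited. The share of them above 0 was 56.9% after scaling and 19.3% with TPM as deposited. Of 18 early proximal tubule genes tested, 10 were above 0 and 8 below, with a median of 0.02, which was −0.31 with TPM as deposited and −0.26 with quantile scaling. The 8 late proximal tubule genes had 7 above and a median of 0.38, the 8 thick limb genes 5 above and 0.05 (−0.27 as deposited and −0.11 with quantile scaling), and the 8 distal and connecting tubule genes 6 above and 0.37. The late proximal median was 0.07 without S0242 and 0.06 as deposited, and the distal one 0.15 without S0242, 0.15 without L-type S0384, 0.71 without L-type S0385 and 0.06 as deposited. The 9 principal cell genes had a median of −0.14, which was 0.02 without S0242 and −0.42 as deposited. The 11 intercalated cell genes had a median of −0.06, which ran from −0.24 to 0.13 when 1 kidney was left out and was −0.37 as deposited. None of these genes passed. S0242 stood apart here: the thick limb list mean was 7.08 in S0242 against 4.77 to 5.08 in the other ET-type kidneys and 4.86 to 6.52 in L-type, and without S0242 all 8 thick limb genes lay below 0, with a median of −0.41. Of the transcription factors of kidney epithelium 15 of 16 lay below 0, with a median of −0.15 that was −0.27 without S0242, −0.09 without L-type S0385 and −0.46 as deposited.

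Of 10 podocyte genes, 8 lay below 0 (median −0.21), but only 5 without S0309 (median −0.02), and the median was −0.52 as deposited. PODXL, the anti-adhesive sialoprotein of podocytes that endothelium also carries, was at 13.01, 14.3, 5.69 and 8.40 TPM in ET-type and at 16.8, 17.0, 38.8, 12.9 and 31.4 TPM in L-type (−1.06, SE 0.37, adjusted p = 0.852). CLIC5, a chloride channel protein of the foot process, differed by −0.93 (SE 0.33). The slit diaphragm proteins had smaller differences: PODO (podocin) differed by −0.04 (SE 0.37) and NPHN (nephrin) by −0.18 (SE 0.39). PODXL stood only just inside the overlap, since L-type S0384 lay below ET-type S0242 and S0276.

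Of 10 drug transport genes tested, 6 lay above 0 and none passed, with a median of 0.17 that was −0.27 without S0242, −0.16 as deposited and −0.11 with quantile scaling. S22A8, the basolateral anion transporter OAT3 of the proximal tubule, was at 285, 286, 142 and 136 TPM in ET-type and at 111, 119, 145, 50.3 and 60.1 in L-type, a difference of 1.14 (SE 0.38, limma adjusted p = 0.850; 1.15 with the replicate block, adjusted p = 0.00138, a fit that pools the spread of kidney with that of tissues where its mean was 0.0413 to 0.104 TPM). Only L-type S0377 reached into the ET-type range. MRP2 (ABCC2), the apical pump for conjugated drugs, had 8.94 to 17.8 TPM against 4.78 to 14.6 (0.78, SE 0.33). S22A6, the partner transporter OAT1, differed by −0.27 with an SE of 0.87. In the distal tubule, PRVA (parvalbumin), a calcium buffer, was at 51.1, 3.56, 7.79 and 30.9 against 6.77, 4.46, 2.14, 5.16 and 3.43 TPM (1.64, SE 0.65, limma adjusted p = 0.853; 0.00474 with the replicate block, where the other tissues had means of 0 to 0.0328 TPM). S0242 and S0326 were high and S0276 lay within the L-type range.

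**Figure D3:**
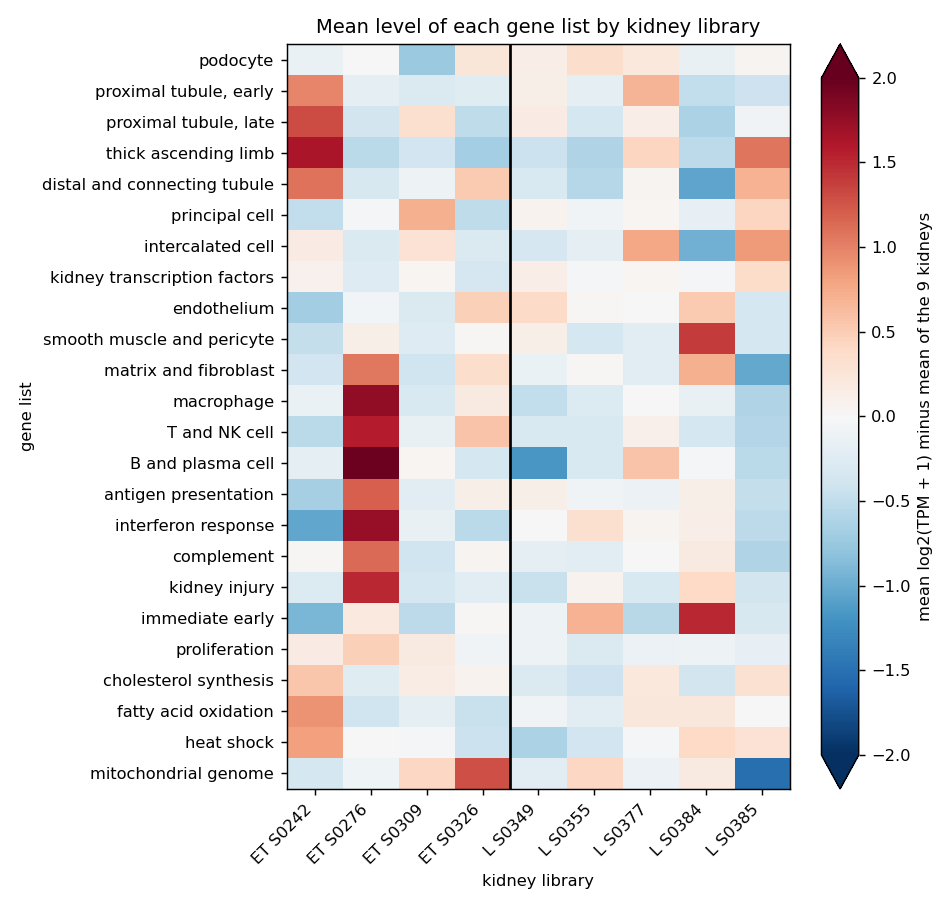
Mean log2(TPM + 1) of the tested genes of 24 lists (rows) in each kidney (columns, ET-type left of the black line), minus the mean of the 9 kidneys; red is above it and blue below, and the colour scale ends at −2 and 2. S0242 is red for the proximal tubule, thick limb and distal tubule lists but blue for the principal cell list, S0276 is red for immune and injury lists, and L-type S0384 for smooth muscle and immediate early genes.

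Of the renin-angiotensin system, which sets blood pressure through angiotensin II and aldosterone, 10 genes were tested and 6 lay above 0 (median 0.03, and −0.29 as deposited or −0.09 with quantile scaling). RENI, the protease renin that starts the cascade, ranged from 2.91 to 17.2 TPM in ET-type and from 3.22 to 22.9 in L-type (−0.17, SE 0.55). ACE, which converts angiotensin I to II, was at 86.2, 53.4, 66.3 and 46.5 against 108, 77.3, 85.2, 86.3 and 111 TPM (−0.58, SE 0.22, limma adjusted p = 0.853). Of the ET-type kidneys, S0242 alone lay inside the L-type range. The receptor AGTR1 (0.00, SE 0.29) and the mineralocorticoid receptor MCR (−0.21, SE 0.26) had differences below their SE. Leaving out 1 kidney moved the median of the list to between −0.33 (without S0242) and 0.14 (without S0309).

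Of the 6 endothelin genes tested, 5 lay below 0 (median −0.32, and −0.15 without S0309 or −0.50 as deposited), and EDN2 was the one whose groups were apart. EDN1 had 0.376 to 2.08 TPM in ET-type against 0.552 to 3.21 in L-type (−0.21, SE 0.35) and EDN3 0.304 to 3.27 against 0.188 to 1.76 (0.25, SE 0.37). The receptors EDNRA (−0.01, SE 0.29) and EDNRB (−0.44, SE 0.44) and the converting enzyme ECE1 (−0.48, SE 0.46) also overlapped. KLK, tissue kallikrein of the connecting tubule, which releases kinins, had 871, 841, 1271 and 1310.0 TPM in ET-type and 350, 382, 1064, 138 and 1445 in L-type (1.1, SE 0.60, adjusted p = 0.903). L-type S0377 and S0385 lay inside or above the ET-type range.

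Among metabolic genes, FRIL, the light chain of the iron store ferritin and the fourth highest entry of the kidney, had 31827, 21112, 33786 and 19593 TPM in ET-type and 9407, 14786, 16549, 10989 and 13063 in L-type. The groups did not overlap and differed by 1.02 (SE 0.34, limma adjusted p = 0.852; 0.0197 with the replicate block). PCKGC, the gluconeogenic enzyme phosphoenolpyruvate carboxykinase, was at 1049.7, 881, 1010.5 and 435 against 1068, 1163, 1382, 1869 and 1604 TPM (−0.80, SE 0.31, adjusted p = 0.853). These groups were apart by a narrow gap between S0242 and L-type S0349. S38A3, the glutamine carrier that feeds ammonia production, differed by 1.22 (SE 0.62) with overlap.

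Cholesterol synthesis genes were mostly above 0, with 16 of 20 and a median of 0.21. EBP, a sterol isomerase, kept the groups apart at 27.3 to 39.5 against 17.7 to 27.1 TPM (0.61, SE 0.20, limma adjusted p = 0.852), the smallest p of the list together with FPPS (farnesyl diphosphate synthase) at 0.88 (SE 0.30). With TPM as deposited the same list had 8 of 20 above 0 and a median of −0.10. Over all entries 19.3% then lay above 0, with a median of −0.24. Fatty acid oxidation genes were split, with 8 of 20 above 0 and a median of −0.04, and −0.43 without S0242 or −0.37 as deposited. Of the mitochondrial genome, 8 of 9 genes lay above 0 with a median of 0.54 (−0.01 with quantile scaling, 0.21 as deposited, 0.27 without S0326 and 0.18 without L-type S0385), and the spread between kidneys was wider than that: their list mean ran from 12.3 to 13.95 in ET-type and from 11.2 to 13.1 in L-type.

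Immune cell genes were higher in ET-type on balance, and ET-type S0276 was the highest kidney for the summed T and NK cell and macrophage lists. All 13 macrophage genes tested (median 0.64), 11 of 12 T and NK cell genes (0.71) and all 6 B and plasma cell genes (0.52) lay above 0, and none passed or kept the groups apart. The lists had 16, 18 and 12 matched members, and those with a mean below 1 TPM were not tested. With TPM as deposited these medians were 0.37, 0.49 and 0.24. CD3Z, the zeta chain of the T cell receptor complex, had 8.43, 22.6, 6.33 and 14.5 TPM in ET-type and 7.17, 4.79, 7.15, 4.604 and 3.36 in L-type (1.02, SE 0.36, adjusted p = 0.852). C1QA, a complement subunit made by macrophages, had 26.1, 104, 23.9 and 27.8 against 15.4, 19.02, 27.4, 17.9 and 13.9 TPM (0.98, SE 0.42). S0276 was the highest kidney for both. Summed over its list, the T and NK cell level was 214 TPM in S0276 against 32.5 to 92.9 in the other 8 kidneys, and the macrophage level was 853 against 120 to 225. Without S0276 the medians were 0.24 for macrophages, 0.26 for T and NK cells and 0.26 for B and plasma cells.

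The same kidney was high for the interferon response (list mean 5.64 against 2.87 to 4.23 in the other 8), for antigen presentation (6.37 against 4.52 to 5.31) and for kidney injury genes (6.88 against 4.92 to 5.77). Without it the interferon list turned from a median of 0.08 to −0.52, and with TPM as deposited the median was −0.22. CLUS, or clusterin, a secreted chaperone of injured tubule, was at 69.6, 1669, 132 and 149 TPM in ET-type against 70.9 to 196 in L-type (1.12, SE 0.78), with S0276 far above the other 8. CFAB, complement factor B, was the member of the complement list that kept the groups apart, at 21.6 to 30.6 against 15.8 to 20.3 TPM (0.42, SE 0.19, adjusted p = 0.855). Markers of lymph node summed to 59.1 to 469 TPM in ET-type and 30.3 to 244 in L-type, with no member at 0 in all 9, and their part in the immune values was not tested.

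Vascular genes leaned towards L-type. Of 18 endothelial genes 15 lay below 0 (median −0.27, and −0.58 as deposited). PECA1 (CD31), an adhesion molecule of endothelial junctions, had 23.8, 24.8, 27.3 and 28.9 TPM in ET-type and 50.9, 28.1, 60.3, 48.8 and 46.9 in L-type (−0.78, SE 0.23, limma adjusted p = 0.812). Only L-type S0355 lay at the ET-type level. TIE2, the angiopoietin receptor, kept the groups apart at 7.68 to 11.3 against 12.1 to 20.9 TPM (−0.60, SE 0.22, adjusted p = 0.852). VWF (−0.01, SE 0.39) and PLVAP (0.10, SE 0.24), an endothelial clotting factor and a protein of fenestrated capillaries, did not follow. The list median was −0.07 without S0242, whose endothelial list mean of 4.12 was the lowest of the 9. PGFRB, the PDGF receptor of pericytes and mesangium, had 2.24, 8.14, 2.68 and 4.39 against 6.51, 7.31, 10.3, 9.26 and 8.83 TPM (−0.92, SE 0.32), where S0276 lay inside the L-type range. Among 15 smooth muscle and pericyte genes 11 lay below 0 (median −0.16), and the median was −0.48 as deposited and 0.18 without L-type S0384.

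Immediate early genes, which are induced within minutes by growth factors, stress or the handling of tissue, were lower in ET-type for 21 of 24 members, with a median of −0.53 (−0.81 as deposited). EGR1, above, was the one that kept the groups apart. NR4A1, an orphan nuclear receptor, had 8.04, 40.5, 28.1 and 123 TPM against 72.2, 240, 35.3, 158 and 77.9 (−1.49, SE 0.73), FOS differed by −1.04 (SE 0.57) and DUS1, the phosphatase DUSP1, by −1.08 (SE 0.52), all with overlap. The list mean was 6.04 in L-type S0384 and 5.22 in L-type S0355 against 3.63 to 4.73 in the ET-type kidneys, and 3.98 to 4.43 in the other 3 L-type kidneys. Without S0384 the median was −0.19. PER1, a clock gene that is also stimulus-induced, had 41.9 to 130 TPM against 129 to 196 (−0.85, SE 0.31, adjusted p = 0.852), while 7 of 17 clock genes lay above 0. The time of tissue collection is not given in the labels.

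All 13 proliferation genes tested lay above 0 (7 of 13 with TPM as deposited, where 19.3% of all entries did), by a median of 0.20. The list had 19 matched members. Its cell cycle markers MKI67, TOP2A, CCNB1, CDK1, RRM2 and AURKA had means below 1 TPM and were not tested. Levels were low: the list summed to 76.6 to 115 TPM in ET-type and 73.8 to 83.5 in L-type. Besides KITH, E2F1, a transcription factor of the entry into S phase, kept the groups apart at 1.49 to 3.63 against 0.292 to 0.781 TPM (0.98, SE 0.25, limma adjusted p = 0.765). With the replicate block its limma adjusted p was 0.0188, with the spread pooled over tissues where its mean was 0.406 to 5.33 TPM. Without S0276 the list median was 0.07. With the lymphoid kidney of S0235 kept it was 0.94, but over 18 genes, since more members then reached a mean of 1 TPM.

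Whether the differences are particular to kidney was tested by taking each animal's kidney level minus the mean of its heart, liver, lung and spleen. Of the 26569 genes 0 (0%) passed, with a lowest adjusted p of 0.0569 and 1425 at an unadjusted p below 0.05. Among entries the smallest p belonged to GPX3, the secreted glutathione peroxidase that the kidney makes for plasma, with a kidney difference of 0.63 (SE 0.46) and −0.61, −2.25, −2.63 and −0.20 in heart, liver, lung and spleen, so that kidney exceeded the other tissues by 2.05 (SE 0.38, limma adjusted p = 0.768). EDN2 differed by −1.29 (SE 0.25) from the other tissues, KITH by 1.20 (SE 0.25) and PEMT by 1.38 (SE 0.34). For EDN2, at a mean of 0.0365 to 0.136 TPM in those tissues, this could do little but repeat the kidney difference of −1.22. KITH had means of 0.238 TPM in heart and 0.760 in liver, but 6.16 in lung and 5.80 in spleen. PEMT differed by −0.65 in heart, −0.07 in liver, 0.17 in lung and 0.59 (SE 0.18) in spleen. ANGL4, an inhibitor of lipoprotein lipase, was at 8.70, 51.0, 8.30 and 13.3 TPM in ET-type and 57.6, 48.9, 43.7, 121 and 31.2 in L-type kidneys (−1.78, SE 0.54) and differed from the other tissues by −1.57 (SE 0.35). With the replicate block its kidney difference passed (limma adjusted p = 0.0185). OCRL, a phosphoinositide phosphatase of the endocytic route of the proximal tubule, kept the groups apart at 1.43 to 4.26 against 4.70 to 6.43 TPM (−0.83, SE 0.27; −0.87 with the replicate block, limma adjusted p = 0.0197).

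Other leading genes had differences of the same sign elsewhere in the same animals. FREY was higher in ET-type by 1.05 in heart, 0.32 in liver, 0.87 in lung and 1.25 in spleen, and COX7S by 1.16, 0.30, 0.98 and 1.23. RARR2 was higher by 0.91 (SE 0.26) in heart, 0.25 (SE 0.22) in liver, 0.38 (SE 1.09) in lung and 1.13 (SE 0.27) in spleen. CPXM1 was higher by 1.22 in heart, 0.14 in liver, 0.94 in lung and 1.26 in spleen. Their kidney differences exceeded the mean of the other tissues by 0.49 (SE 0.37) for FREY, 0.17 (SE 0.35) for COX7S, 0.57 (SE 0.38) for RARR2 and 1.35 (SE 0.45) for CPXM1, none past the test. These tissues share animals, so they are not independent of the kidneys.

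**Figure D4:**
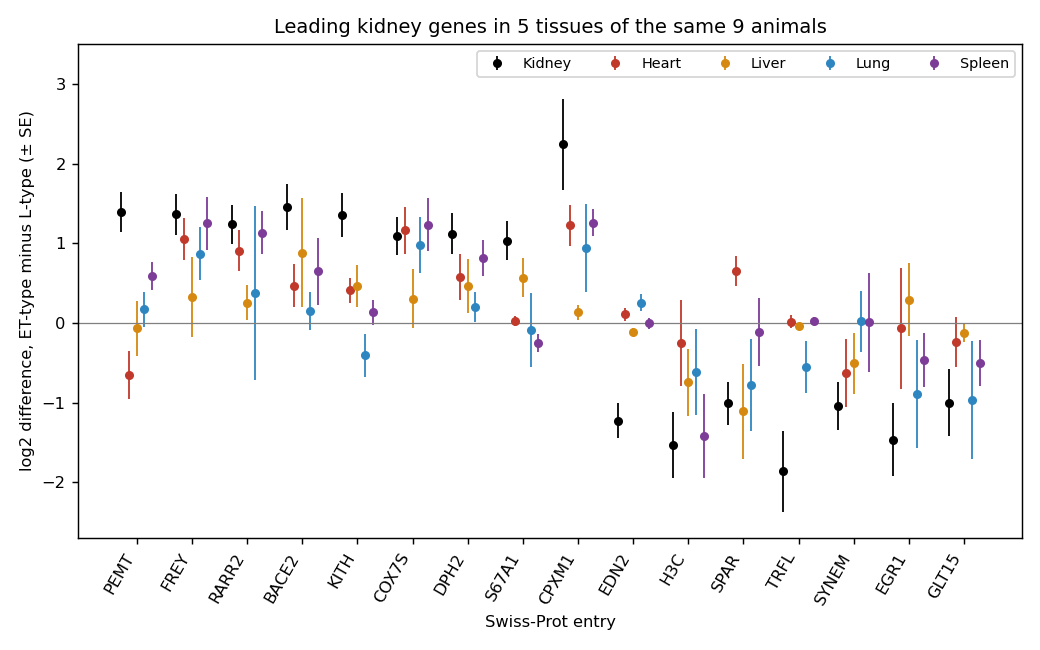
Difference of ET-type minus L-type on the log2 scale with its SE for the same leading kidney genes, in kidney (black) and in heart, liver, lung and spleen of the same 9 animals. FREY, RARR2, BACE2, COX7S, DPH2 and CPXM1 are above 0 in all 5 tissues. PEMT is below 0 in heart and above 0 in spleen. EDN2 is near 0 outside kidney, where its mean level was at most 0.136 TPM.

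The smallest p-values of the whole comparison belonged to transcripts without a protein entry. Lung.L.NODE_218900, assembled from L-type lung, was 0 in all 4 ET-type kidneys and 2.92, 3.65, 6.34, 9.68 and 9.36 TPM in L-type (−2.77, limma adjusted p = 0.0818; 0.00147 with the replicate block). It was at most 1.06 TPM as deposited in the heart, liver, lung and spleen of these 4 ET-type animals and at least 1.70 in those of the L-type animals. The left-out animal S0235, though of the ET type, had it in all 5 tissues, at 2.39 to 8.90 TPM. Lymph.ET.NODE_5956 had 6.23, 4.76, 2.89 and 3.64 TPM in ET-type kidneys against 0.0335 to 0.598 in L-type (1.95, limma adjusted p = 0.0916). With the replicate block it passed at 1.96 (limma adjusted p = 5.28e-09). For this transcript S0235 had 1.91 to 14.8 TPM across its tissues, above the L-type maximum of each. Kidney.L.NODE_389495 was 0 in 3 ET-type kidneys and 6.49 to 16.4 TPM in L-type (−3.03, limma adjusted p = 0.0818; 0.0693 with the replicate block), but was found in ET-type heart, at 1.24 to 8.39 TPM, and in ET-type lung. The left-out kidney of S0235 had it at 7.52 TPM as deposited, inside the deposited L-type range of 7.42 to 18.6. Backfat.L.NODE_136539 was 3.11 to 10.7 in ET-type and 0 in 4 of 5 L-type kidneys (2.52, limma adjusted p = 0.0916; 0.0621 with the replicate block). An exact 0 can be a failed estimate of the quantifier, and no fold is given against it.

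Several genes varied far more between animals than between types. The entry M3K15 had 337 TPM in ET-type S0309, 223 in ET-type S0326 and 258 in L-type S0377, 16.6 in L-type S0349 and at most 0.249 in the other 5 kidneys. It rests on 1 transcript with 51.6% identity to the kinase MAP3K15. In heart, liver, lung and spleen the same 3 animals were also the 3 highest. HB2D, an SLA class II beta chain of antigen presentation, from a locus that is highly polymorphic in pigs, had 284 TPM in ET-type S0276, 125 in L-type S0349 and 85.4 in L-type S0355 and at most 15.7 elsewhere. CP4B1, a cytochrome P450 of the lung and kidney, ran from 2.17 to 396 TPM, and NCTR3, an NK cell receptor entry, from 0.137 to 59.1 with 5 kidneys at 26.2 or more and 4 at 3.82 or less. TRFE, serum transferrin, was at 71.1, 38.9 and 48.5 TPM in S0242, S0349 and S0377 and at most 3.71 in the others. The 5 genes had log2 differences between types of −0.73 to 1.86, with SEs of 1.34 to 2.24.

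**Figure D5:**
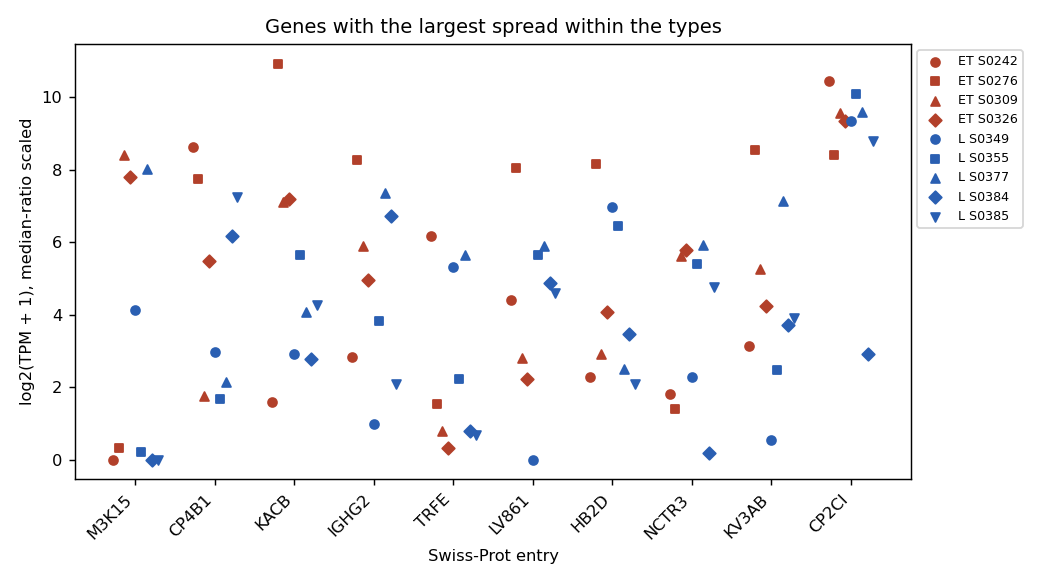
Level of the 10 entries with the largest spread within the types, as log2(TPM + 1) after scaling, 1 symbol per kidney, ET-type in red and L-type in blue. M3K15 is high in ET S0309, ET S0326 and L S0377 and near 0 in 5 kidneys, and the immunoglobulin entries KACB, IGHG2, LV861 and KV3AB peak in ET S0276.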

How the data were processed

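Per the submitters' processing notes, the tools were Trimmomatic 0.36, a read trimmer, and Salmon 1.10.0, a transcript quantifier, and the build named is Sscrofa11.1. The authors deposited TPM for 57085 assembled transcripts and a table of their protein matches. Of these transcripts 63.9% had a Swiss-Prot hit, and summing TPM over the best hit gave 14532 entries, 36.8% of them on 1 transcript. Members of a gene family with near-identical sequence may share an entry or split between entries. All columns were mapped to samples by name.

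The 9 kidneys were scaled by median ratios, and log2(TPM + 1) was fitted with limma 3.58.1 in R 4.3.3 (trended variance) over genes with a mean of 1 TPM or more. Adjusted p-values are Benjamini-Hochberg over all genes tested, with a threshold of 0.05. Since each library is 1 animal, they measure the spread between these animals. Single measures used an exact two-sided permutation test over 126 splits. The fit was tested on simulated data. Coordinates are those of RefSeq on Sscrofa11.1, matched by symbol.

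Named genes were the up to 10 entries per direction with the smallest p among those whose groups did not overlap and that differed by at least 1 on the log2 scale, then the markers, list members with the smallest p, the 10 entries of largest spread, leading transcripts without an entry and the leading genes of the comparison with other tissues. Of the symbols in 40 gene lists, 483 of 526 matched an entry. The comparison, members and lists were chosen with earlier results of these data known. Counts of lists without each library were chosen after seeing the data.

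Animals pair the tissues by design. Deviations from the group means correlated between a kidney and another tissue of the same animal at a mean r of 0.27 (36 pairs, 34 of them above 0.1). For 128 pairs of different animals of one type the mean r was −0.08. Taking out the group means by itself pushes that value below 0, so it is no separate baseline. Because of the pairing, a fit with the animal as replicate block over all tissues, the other tissues of S0235 included, was an alternative. The others were TPM as deposited, quantile scaling, another pseudocount, no or a higher filter, S0235 kept, mitochondrial genes left out, robust variance, a tubule covariate, transcripts in place of genes and leaving out each kidney. A few genes that the rule names are not reported here.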

Additional observations from a re-analysis of the deposited data

Results flagged for a closer look

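Of 126 groups of levels tested for a single distant sample, 15 had one, and chance gives about 1 in 20. Levels here are log2(TPM + 1). Among ET-type kidneys, S0242 was far above the others for UROM (12.42, next 9.10) and for the list means of the early proximal tubule (7.42, next 6.27), thick ascending limb (7.08, next 5.08), phosphate, calcium and vitamin D genes (5.73, next 5.04) and hypoxia genes (5.47, next 4.74). S0276 was the highest for the kidney injury list (6.88, next 5.17) and the B and plasma cell list (5.49, next 3.58), and the lowest for CUBN (3.52, next 4.27). ET-type S0326 was the lowest for RARR2 (10.69, next 11.19).

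Among L-type kidneys, S0385 was the highest for DPH2 (3.94, next 3.28) and the lowest for the lymph node list (2.24, next 3.64). S0384 was the highest for SYNEM (2.96, next 2.37) and the smooth muscle list (6.09, next 4.82). S0355 was the lowest for the clock list (3.24, next 3.62) and the osmolyte list (3.75, next 3.92). In the kidney library of S0235, which was left out of the main comparisons, lymph node genes summed to 3345 TPM against at most 469 in the other kidneys.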

How the results depend on the processing

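The count of called genes between the types was 0, and 0 also with quantile scaling, without a filter, with a mean of 5 TPM, with S0235 kept, without mitochondrial genes, with robust variance and with the tubule covariate. It was 1 with TPM as deposited, 2 with a pseudocount of 0.1, 7 with transcripts in place of genes and 0 to 5 when 1 kidney was left out. With the animal as replicate block it was 155, 76 higher and 79 lower; the consensus correlation was 0.138, and the cause of the larger count was not tested. For kidney against the other tissues, the count of 0 became 1 with TPM as deposited, 1 with a pseudocount of 0.1, 1 with S0235 kept and 0 to 1 when 1 kidney was left out. LRP2 turned to −0.31 as deposited, −0.25 with quantile scaling, −1.18 with S0235 kept and −0.0866 with the covariate, and ran from −0.33 to 0.22 without 1 kidney. UROM turned to −0.30, −0.42 and −1.88 under the first 3 of these and ran from −0.85 to 0.57 without 1 kidney, AQP2 ran from −0.66 to 0.02 (0.0154 without S0242), and S67A1 turned to −0.46 with S0235 kept. Genes at 1 TPM or more differed by −2218 with S0235 kept (exact permutation adjusted p = 0.0318) and by −2451 to −1661 without 1 kidney. The share of TPM without an entry was 12.7% in ET-type and 14.7% in L-type, a difference of −2.08 points that did not pass (exact permutation adjusted p = 0.0635). It was −2.09 points with S0235 kept (exact permutation adjusted p = 0.0318) and −2.43 to −1.76 without 1 kidney (exact permutation adjusted p from 0.0571 to 0.143). The mitochondrial share differed by −0.735 points with S0235 kept and by −0.885 to 9.63 without 1 kidney, and the haemoglobin share by −0.00123 and by −0.0018 to 0.00402.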

Other observations

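Of 12 heat shock genes 11 lay above 0 in ET-type, with a median of 0.13 that was −0.20 with TPM as deposited, −0.08 with quantile scaling and −0.19 without S0242. Over all entries the median with TPM as deposited was −0.24, with 19.3% above 0. HSPB1, a small heat shock chaperone, had 343, 378, 534 and 364 TPM in ET-type and 230, 238, 243, 311 and 366 in L-type (0.55, SE 0.22, limma adjusted p = 0.853). Only L-type S0385 reached into the ET-type range. Of 14 matrix and fibroblast genes 11 lay above 0 (median 0.23), but 6 without S0276 (median −0.03) and 7 with TPM as deposited (median −0.06). CO4A1, a collagen of basement membranes, differed by 0.40 (SE 0.22). Of 10 genes studied in pig organ grafts 7 lay below 0 (median −0.18, and −0.08 without S0242 or −0.49 as deposited). EPCR, the endothelial receptor of protein C, had 1.68, 3.86, 2.72 and 2.29 TPM in ET-type and 7.79, 4.45, 3.57, 17.8 and 3.26 in L-type (−0.99, SE 0.43, limma adjusted p = 0.855), so that S0276 alone among ET-type kidneys lay inside the L-type range.

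All 6 osmolyte genes tested lay below 0 (median −0.12, and −0.44 as deposited), and 10 of 12 phosphate, calcium and vitamin D genes lay above 0 (median 0.15, and −0.11 as deposited or 0.07 without S0242). CALB1, the calcium-binding calbindin of the distal tubule, had 479 TPM in S0242 against 60.1 to 119 in the other ET-type kidneys and 23.5 to 212 in L-type (0.97, SE 0.72).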
